A study of Homo sapiens with 6 samples.

Results

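Mitochondrial ribosomal proteins were examined in MM.1S cells after knockdown of PRMT1. The members were the rows of the expression table annotated as protein coding whose gene name starts with MRPL or MRPS followed by a digit. This rule found 78 genes among 58735, of which 49 carry the name of the large subunit (MRPL) and 29 that of the small subunit (MRPS). Another 77 rows carry such a name without being protein coding, and they were not counted as members.

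The mitochondrial ribosome translates the few proteins that mitochondrial DNA encodes, all of them core parts of the oxidative phosphorylation (OXPHOS) machinery. Its RNA comes from the mitochondrial genome, whereas its proteins are encoded in the nucleus, made in the cytosol and imported. The small subunit holds the messenger RNA and the decoding centre. The large subunit joins the amino acids and releases the protein at the inner membrane. Many of the proteins have a counterpart in bacterial ribosomes, and many others are found only in mitochondria.

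The MM.1S line was derived from multiple myeloma, a cancer of plasma cells, and is long established in culture. The comparison asked how the transcriptome differs when PRMT1, the main enzyme for asymmetric arginine dimethylation, is depleted. Cells were transfected with a negative control siRNA (si-NC, 3 libraries) or with siRNA against PRMT1 (PRMT1 KD, 3 libraries), and both groups are otherwise the same unmodified line. The siRNA was used at 100 nM and cells were collected 72 h later. This knockdown is transient, and which PRMT1 siRNA gave these libraries is not given in the sources used here. Values are FPKM, fragment counts scaled by gene length and by library size. The study's methods call the biological replicates of its experiments dependent, and nothing in the labels says that the libraries came from separate cultures, so p-values measure the spread between these libraries, which may be technical.

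PRMT1 itself stood at 61.7, 62.8 and 58.9 FPKM in the si-NC libraries and at 13.3, 14.02 and 12.5 FPKM in the PRMT1 KD libraries, 21.7% of the si-NC mean. Its log2 fold change was -2.13 ± 0.06 (SE), with an adjusted p of 2.77e-05 by limma, and the groups did not overlap. Libraries held 14439217 to 16465026 reads on genes, of which the members took 0.409% to 0.445%. Of 8 plasma cell and myeloma markers, all were expressed, from CD38 at 1.92 FPKM to XBP1 at 287 FPKM in the si-NC mean, with 4 of the 8 at a log2 fold change below 0 and 4 above. SLAMF7 alone was called, at 38.0 ± 0.961 and 23.8 ± 1.17 FPKM (SD, n = 3 each, adjusted p = 0.00515 by limma). XBP1 and PRDM1 also lay below the controls in every knockdown library, at 91.4% and 87.5% of the si-NC mean, whereas CD38 and MZB1 lay above them in every one, at 127.8% and 108.1%. Defining markers of other cells were at or near 0, with the B cell gene MS4A1 at 0 in every library, LYZ at up to 0.112 FPKM and COL1A1 at up to 0.0401 FPKM, while PAX5 was at 0.781 to 1.30 FPKM and EPCAM at 0.431 to 0.817 FPKM. Exceptions were the T cell gene CD3E, at 32.1 to 35.6 FPKM in si-NC and 36.5 to 39.0 FPKM in PRMT1 KD cells (log2 fold change 0.18, adjusted p = 0.135 by limma), while CD3D was at 0.456 to 0.845 and 0 to 0.326 FPKM and CD2 at or below 0.0369 FPKM, and the epithelial keratin KRT8, at 19.5 to 23.1 FPKM.

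Libraries numbered 3 stood apart from the other libraries of their group by GC content. Across the 77 members tested, the level in si-NC 3 relative to the other si-NC libraries declined with the GC content of the gene (Spearman's rho = -0.54), and that in PRMT1 KD 3 relative to the other PRMT1 KD libraries did so as well (rho = -0.67). The same comparison gave rho between 0.30 and 0.52 for the libraries numbered 1 and 2. Over all protein coding genes tested with a GC value (n = 10099) the values were -0.58 for si-NC 3 and -0.69 for PRMT1 KD 3, so the members followed the rest of the transcriptome in this respect. These are correlations across genes, which are not independent. Main results below are therefore also given without both libraries numbered 3 and after a GC correction, in which a smooth curve of each library's deviation on GC content was subtracted, and both were chosen after seeing the data.

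Most members had a log2 fold change slightly below 0 in PRMT1 KD cells, and 3 passed the test on their own. Of the 77 members tested, 57 (74.0%) had a log2 fold change below 0, against 47.4% of the 13585 genes tested. The median log2 fold change was -0.07 for the 49 large subunit members and -0.08 for the 28 small subunit members tested, against 0.01 over all genes tested. The members' 25th and 75th percentiles were -0.14 and 0.01, and their extremes -0.44 (MRPL12) and 0.15 (MRPL50). No test was run on these medians, since the members are not replicates. Rescaling to TPM left 52 members below 0 (67.5%, against 43.0% of all genes) and scaling to equal medians 61 (79.2%, against 52.1%). The GC correction left 55 below 0 (71.4%, against 49.6% of all genes), and leaving out both libraries numbered 3 left 63 (81.8%, against 48.5%).

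Members with an adjusted p under 0.05 were MRPL55, MRPS2 and MRPS18B, all lower in PRMT1 KD cells. This is 1 of 49 in the large subunit and 2 of 28 in the small subunit, set against 0.986% of all genes called lower. No member was called higher, against 1.07% of all genes. MRPS18B was not called with any single library left out. MRPS2 and MRPL55 were called without si-NC 3 (adjusted p = 0.0473 and 0.0496 by limma), where 95 of all genes were. Without any other single library 0 members were called, where 13 to 34 of all genes were. Adjusted p by limma was then 0.0735 to 0.146 for MRPS2, 0.0631 to 0.146 for MRPL55 and 0.0627 to 0.139 for MRPS18B. Their log2 fold changes were within -0.45 to -0.29. Without the filter or the variance trend, 0 members were called as well, where 35 and 43 of all genes were. At an unadjusted p under 0.05, 14 members were lower, 10 large and 4 small (18.2% of those tested, against 9.47% of all genes), and 0 were higher (against 10.1%). All 3 PRMT1 KD libraries lay below all 3 si-NC libraries for 16 members, 11 large and 5 small (20.8%, against 12.3%). They lay above for 3 members, MRPL10, MRPL17 and MRPS30 (3.90%, against 13.6%).

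**Figure D1:**
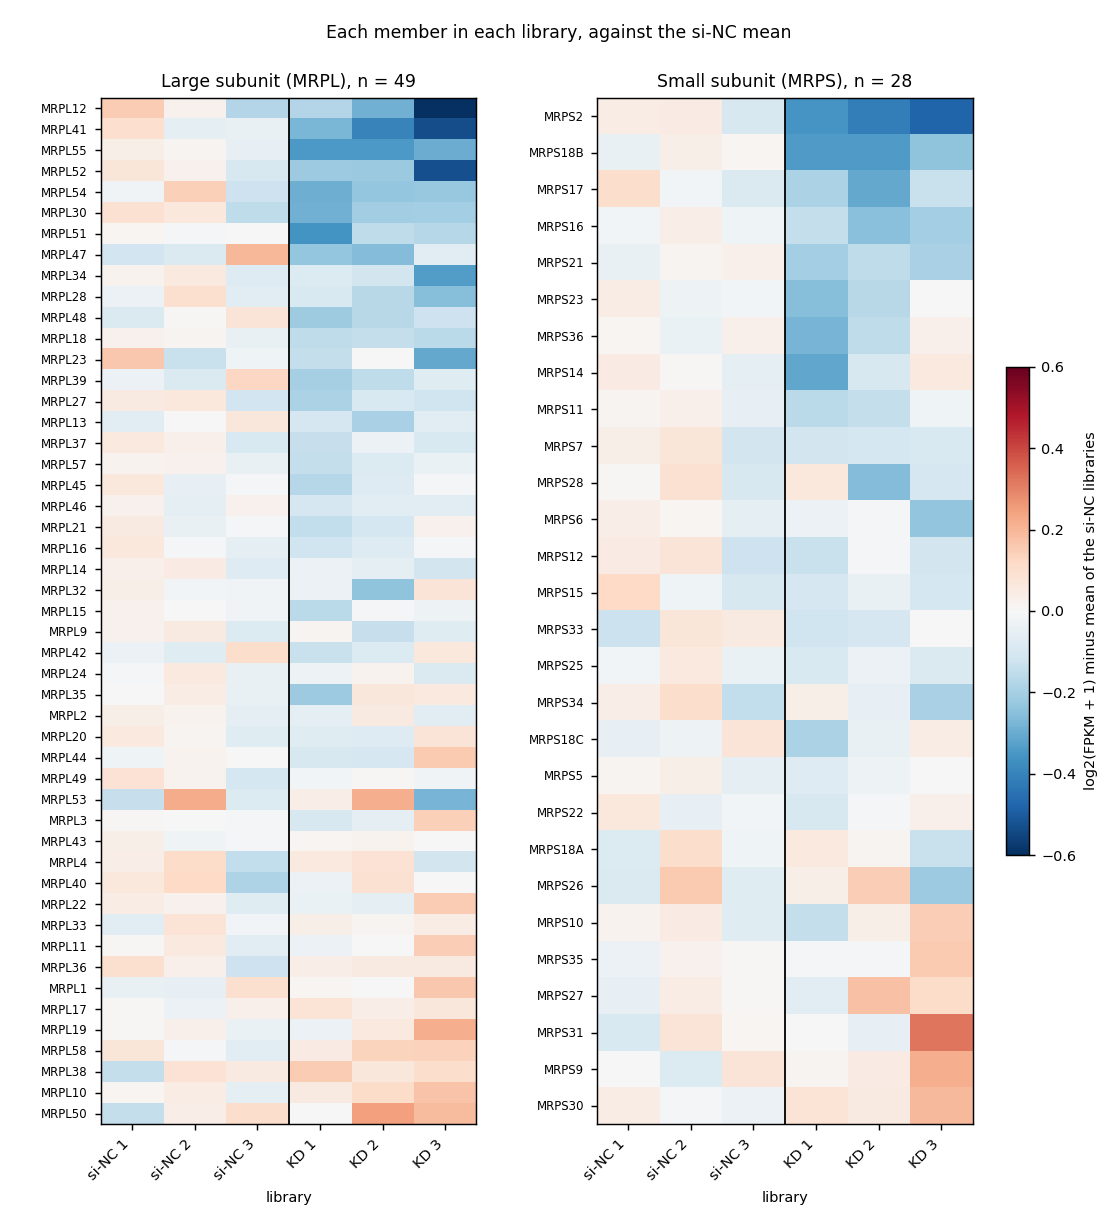
Colour shows log2(FPKM + 1) minus the mean of the 3 si-NC libraries for each member tested (rows, ordered by fitted change) in each library (columns), with the large subunit on the left and the small subunit on the right. Blue, lower values fill most of the upper rows in the PRMT1 KD columns, and PRMT1 KD 3 holds both the deepest blue (MRPL12, beyond the end of the scale) and the deepest red (MRPS31) cells.

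MRPL55, a large subunit protein without a bacterial counterpart (chr1:228106679-228109312, minus strand, hg38), was at 23.9, 23.5 and 22.5 FPKM in si-NC cells and at 18.1, 18.1 and 18.8 FPKM in PRMT1 KD cells. Every knockdown library was below every control library, and the spread within each group was small. The mean fell from 23.3 ± 0.757 to 18.4 ± 0.385 FPKM (SD, n = 3 each), a log2 fold change of -0.33 ± 0.05 (SE) with an adjusted p of 0.0309 by limma. With a block for the replicate number MRPL55 was not called (adjusted p = 0.052 by limma).

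MRPS2, the counterpart of bacterial S2 in the small subunit (chr9:135499984-135504673, plus strand), had 29.8, 29.9 and 26.9 FPKM in si-NC cells. In PRMT1 KD cells it had 22.4, 21.3 and 20.4 FPKM, so that the highest knockdown value lay below the lowest control value. Its log2 fold change was -0.42 ± 0.06 (SE, adjusted p = 0.0322 by limma), the largest of the 3 called members.

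MRPS18B, one of 3 human relatives of bacterial S18 (chr6:30617709-30626395, plus strand), was the most abundant of the small subunit members in si-NC cells and over all 6 libraries. Among these members, MRPS34 had the higher mean in PRMT1 KD cells (67.58 against 64.999 FPKM). MRPS18B stood at 78.1, 82.5 and 81.2 FPKM in si-NC cells and at 63.5, 63.6 and 67.9 FPKM in PRMT1 KD cells. The groups were well apart, with a log2 fold change of -0.31 ± 0.05 (SE, adjusted p = 0.0343 by limma), on 1728 to 2535 reads per library.

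In the exact permutation test, each of these 3 members reached p = 0.1, the smallest two-sided value that 3 libraries against 3 allow. Without both libraries numbered 3 the log2 fold changes were -0.37 for MRPL55, -0.43 for MRPS2 and -0.33 for MRPS18B. Their adjusted p were 0.0605, 0.0605 and 0.0643 by limma on 2 libraries against 2, and no member was called, where 21 of all genes were. After the GC correction, 8 members were called, all lower, 4 large and 4 small, against 3.41% of all genes called lower and 3.76% called higher. These were the same 3, with MRPL41, MRPL18, MRPL47, MRPS16 and MRPS21 added. With a block for the replicate number added to the correction, only MRPL41, MRPS18B and MRPS2 were called, among 301 genes in all. At an unadjusted p under 0.05 after the GC correction alone, 24 members were lower (16 large and 8 small, against 12.4% of all genes) and 2, MRPL10 and MRPL58, were higher (against 12.5%).

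**Figure D2:**
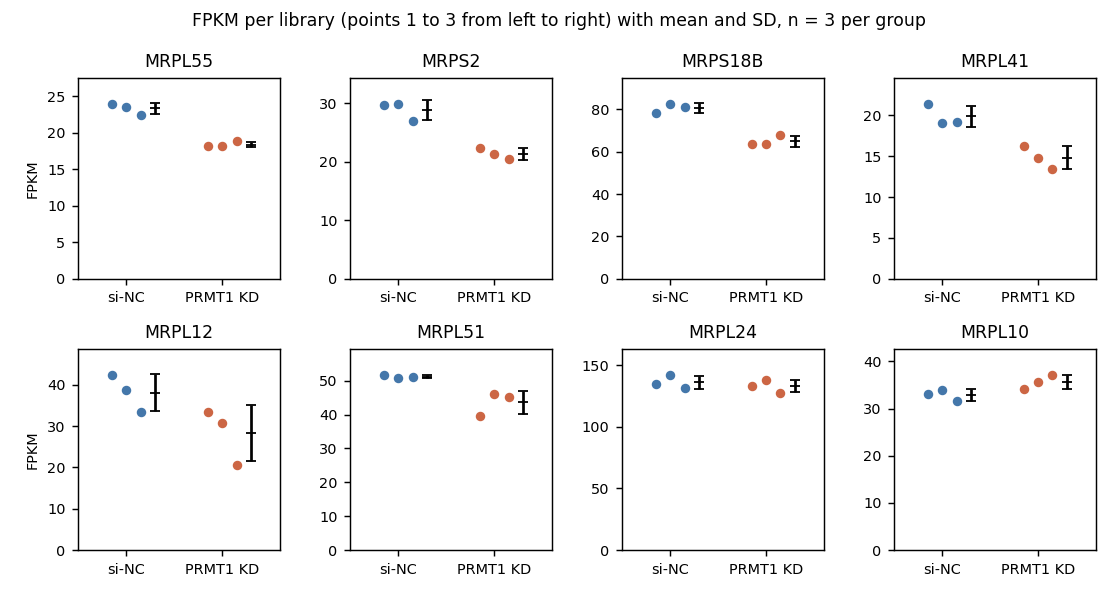
FPKM (vertical axes, starting at 0) in the 3 si-NC and the 3 PRMT1 KD libraries, with the mean and SD (n = 3) beside the points, for 8 members. MRPL55, MRPS2, MRPS18B, MRPL41 and MRPL51 do not overlap between groups, MRPL12 does by a narrow margin with PRMT1 KD 3 far below at 20.7 FPKM, MRPL24 overlaps widely, and MRPL10 is slightly higher in PRMT1 KD cells.

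RefSeq (GRCh38.p14) gave a window of 250 bases before to 50 bases after the start for 69 of the 78 members and for 27305 genes in all. Each window was searched on both strands for letters that known factors bind. CCGGAAG, the core that ETS family factors such as GABP bind, was found in 42.0% of the members' windows, in 21.9% of those of the protein coding genes tested here (n = 8112) and in 10.7% of all. AAGATGGC, bound by YY1, was in 28.99%, 6.31% and 3.03%, and GCGCANGC, bound by NRF1, in 33.3%, 23.4% and 12.5%. GABP and NRF1 are the classical nuclear respiratory factors, which drive genes for mitochondrial proteins. GGGCGG, the SP1 box, was in 60.9%, 70.9% and 44.6%, CCAAT in 28.99%, 37.8% and 35.7%, TATAAA in 2.90%, 4.91% and 11.95%, and the E-box CACGTG in 8.70%, 10.5% and 7.43%. A match is a string of letters, not a bound site, and members of a set chosen by name were not tested against the rest.

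Each stretch below surrounds 1 match, or in MRPL41 2 matches that share a base, in members that the results turn on, with the matched letters in capitals and the rest in lower case, 5′ to 3′ on the strand of the gene. They are shown because the called members differ in which of these letters they carry. MRPS18B holds NRF1 letters 23 bases before its start and YY1 letters from base 24 after it.
MRPS18B, NRF1 letters in reverse complement, chr6:30617807-30617834, plus strand: gtttcctgaaGCATGCGCagttgccttt
MRPS18B, YY1 letters, chr6:30617853-30617880, plus strand: ggcgtacgtcAAGATGGCggcgtctgta
MRPS18A, YY1 letters, chr6:43687765-43687792, minus strand: taggtttttgAAGATGGCggccctcaag
MRPL51, YY1 letters, chr12:6493224-6493251, minus strand: ggtaaggcccAAGATGGCtgtcttcgcc
MRPS16, ETS letters in reverse complement, chr10:73252622-73252649, minus strand: ggatcatccgCTTCCGGagtcgaggttt
MRPS21, ETS letters in reverse complement, chr1:150293840-150293867, plus strand: gtaatttccgCTTCCGGtagtgagaacc
MRPL54, ETS letters in reverse complement, chr19:3762651-3762678, plus strand: ccactgacgtCTTCCGGaaacgtgcact
MRPL55, SP1 letters in reverse complement, chr1:228109343-228109370, minus strand: tcgtgtctcaCCGCCCactcttgcctct
MRPS2, SP1 letters, chr9:135500456-135500483, plus strand: cccattagcaGGGCGGggcgagctgcag
MRPL41, SP1 letters in reverse complement, chr9:137551765-137551792, plus strand: cccgcgagccCCGCCCCGCCCcgcgcgc

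MRPL55, MRPS2 and MRPL41 held none of the ETS, YY1 or NRF1 letters in their windows, and each held SP1 letters. A single RefSeq start was used per gene, and other starts were not searched. The stretches shown for MRPS2 and MRPL41 lie before that start but inside the spans given for these genes, so absence holds for the windows used only. Of the 14 members lower at an unadjusted p under 0.05, 8 held ETS letters, 3 YY1 letters and 3 NRF1 letters, 9 held at least one of these, and 51 of all 69 did. Members with and without ETS letters had median log2 fold changes of -0.07 and -0.07, those with and without YY1 letters -0.05 and -0.07, and those with and without NRF1 letters -0.07 and -0.07. The YY1 letters contain ATG, and in 12 of the 20 members that held them the match lay on a start codon annotated in GENCODE 29, as in MRPS18B and MRPS18A above.

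Below the called members, the next in the large subunit by p was MRPL41, a protein without a bacterial counterpart that is also described as a partner of BCL2 (chr9:137551199-137552555, plus strand). It stood at 21.4, 19.1 and 19.2 FPKM in si-NC cells and at 16.3, 14.8 and 13.4 FPKM in PRMT1 KD cells. The groups did not overlap, and the log2 fold change of -0.40 ± 0.08 (SE) missed the threshold (adjusted p = 0.0586 by limma). It passed under 5 of 18 alternatives. These were the GC correction (-0.35, adjusted p = 0.0207), a filter at a mean of 5 FPKM (0.0261) and voom on reads (0.0163). The others were a block for the replicate number (0.0441) and that block with the GC correction (0.0428). At 71.9% its GC content was the highest of all members.

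MRPL18, the counterpart of bacterial L18, had 44.3, 44.0 and 42.2 FPKM against 39.0, 39.3 and 38.7 FPKM, with no overlap. The log2 fold change of -0.15 ± 0.04 (SE) had an adjusted p of 0.109. MRPL51, which has no bacterial counterpart, had 51.5, 50.7 and 51.0 FPKM in si-NC cells and 39.6, 45.9 and 45.3 FPKM in PRMT1 KD cells, with PRMT1 KD 1 the lowest (log2 fold change -0.23, adjusted p = 0.115). Of its exonic bases, 31.3% are shared with the opposite-strand gene NCAPD2, and the strand setting of the counting is not given in the sources used here. MRPL54, another mitochondria-specific protein, had 18.001, 20.3 and 16.7 FPKM against 14.7, 15.4 and 15.4 FPKM (log2 fold change -0.25, adjusted p = 0.131). MRPL52, likewise without a bacterial counterpart, had 14.3, 13.8 and 12.6 FPKM against 11.5, 11.4 and 9.07 FPKM (log2 fold change -0.32, adjusted p = 0.135, and 0.0306 with voom on reads). In each of these members every knockdown library was below every control library.

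In the small subunit, MRPS16, the counterpart of bacterial S16, had 42.9, 44.7 and 42.7 FPKM in si-NC cells and 39.2, 36.4 and 37.6 FPKM in PRMT1 KD cells. Its log2 fold change was -0.20 ± 0.05 (SE, adjusted p = 0.0847), and -0.21 after the GC correction (adjusted p = 0.0337). MRPS21, the counterpart of bacterial S21, had 21.8, 22.8 and 23.0 FPKM against 19.4, 20.1 and 19.5 FPKM (log2 fold change -0.18, adjusted p = 0.0924, and 0.0388 after the correction). Neither overlapped between groups, and neither was called with the GC correction and the replicate block together (adjusted p = 0.0779 for MRPS16 and 0.0746 for MRPS21 by limma). MRPS17, the counterpart of bacterial S17, was among the lowest members, at 3.16, 2.81 and 2.63 FPKM against 2.38, 2.12 and 2.52 FPKM. Its groups did not overlap either, on 66 to 113 reads per library, and its log2 fold change of -0.21 had an adjusted p of 0.264. Pseudogenes of MRPS17 held a further 7.42% of its reads, so its level may be uncertain, and whether reads were split between the copies was not tested.

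**Figure D3:**
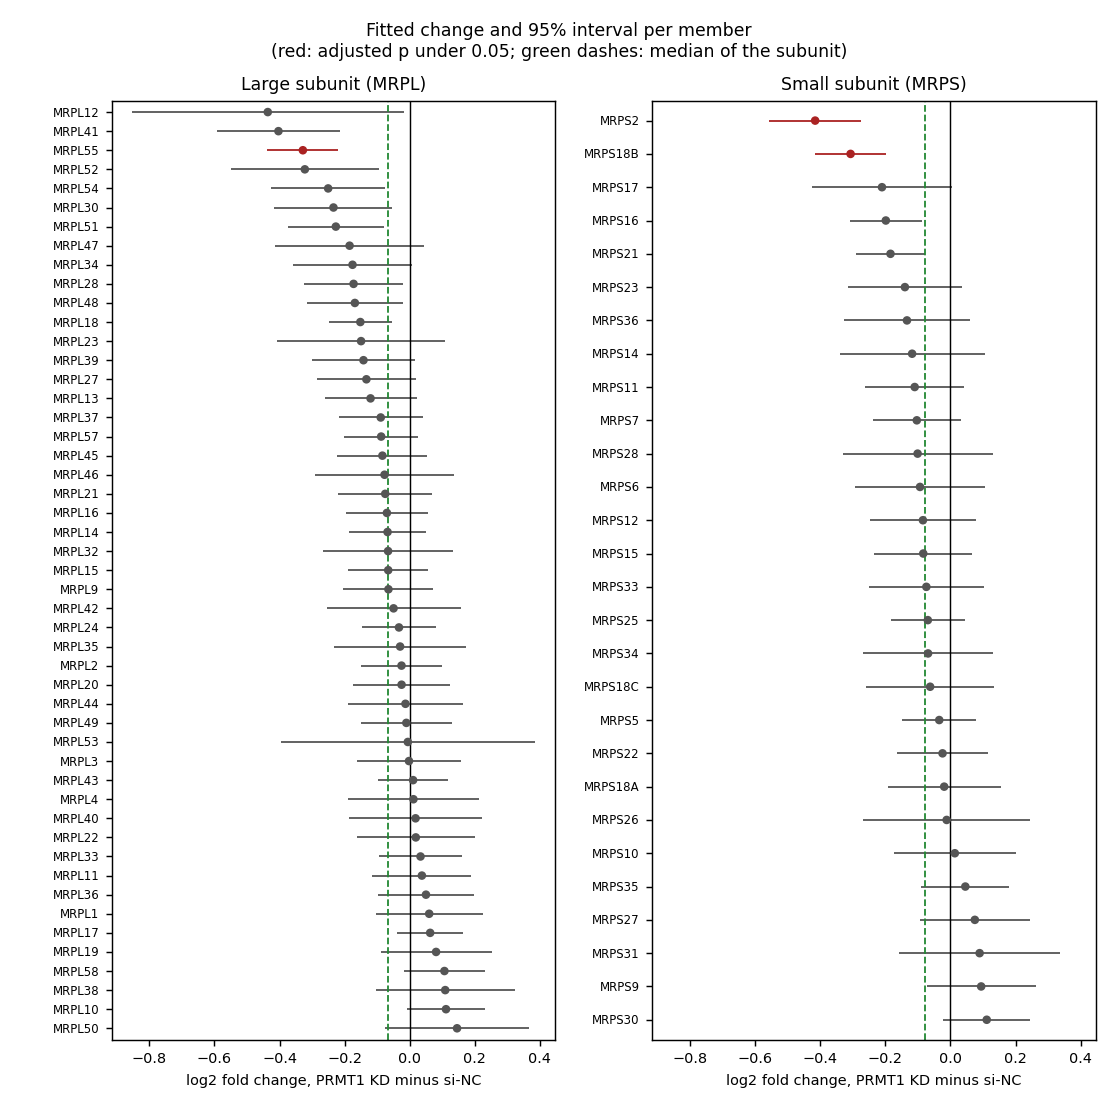
Fitted log2 fold change (PRMT1 KD minus si-NC, on the log2(FPKM + 1) scale) with its 95% interval for each member tested, by subunit. Intervals of MRPL55, MRPS2 and MRPS18B (red) lie far from 0, the intervals of 14 members lie wholly below 0, none lies wholly above 0, and MRPL12 has the widest interval, from -0.85 to -0.02.

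Summed levels were compared within each subunit, and the difference between the subunits was not tested. Summed over the large subunit, FPKM came to 1300.3, 1299.9 and 1240.8 in si-NC cells and to 1192.7, 1221.9 and 1215.8 in PRMT1 KD cells, 94.5% of the si-NC mean. Small subunit sums were 614, 633 and 594 against 564, 572 and 579 FPKM, 93.1% of the si-NC mean. Both sums were lower in every knockdown library than in any control library. The ratio of the large to the small sum was 2.09 ± 0.0312 in si-NC cells and 2.12 ± 0.0187 in PRMT1 KD cells (SD, n = 3 each), and its values overlapped between groups. As a share of all FPKM, the members held 0.638% ± 0.00988 in si-NC cells and 0.608% ± 0.00521 in PRMT1 KD cells. In bulk RNA, a lower level per cell and a lower share of cells with the transcript cannot be told apart.

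Lowest values were not spread evenly over the libraries. PRMT1 KD 1 was the lowest library for 30 of the 77 members, PRMT1 KD 3 for 17 and PRMT1 KD 2 for 10, while si-NC 2 was the highest for 25. PRMT1 KD 3 was also the highest library for 17 members. Members lowest in PRMT1 KD 3 had a median GC content of 55.5%, and those highest in it 41.1%. The median member of the large subunit stood -0.09, -0.07 and -0.04 on the log2 scale from the si-NC mean in PRMT1 KD 1, 2 and 3, and the median member of the small subunit -0.11, -0.05 and -0.05.

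**Figure D4:**
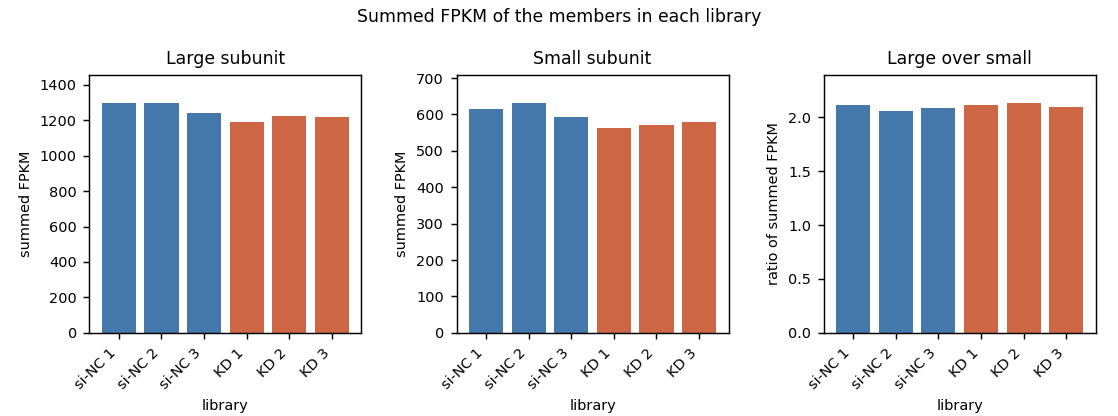
Summed FPKM of the 49 large and the 29 small subunit members and their ratio, 1 bar per library, with axes starting at 0. Sums in the PRMT1 KD libraries lie a little below all si-NC sums in both subunits, and the ratio stays between 2.05 and 2.14.

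**Figure D5:**
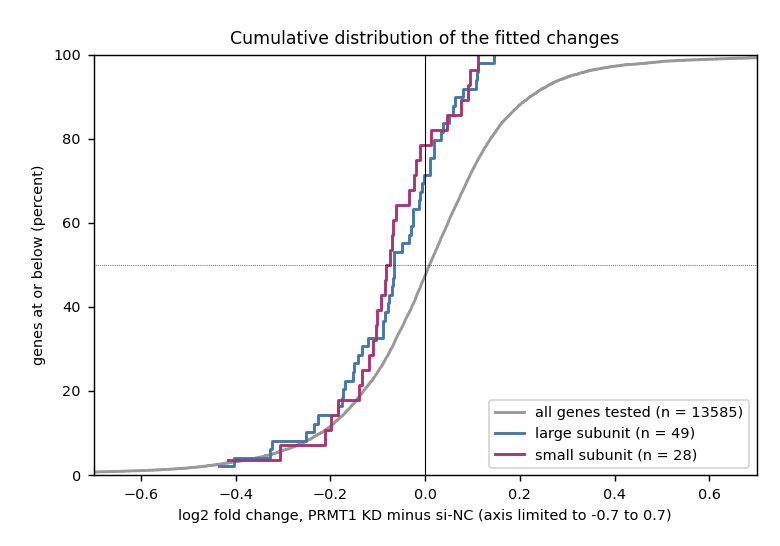
Percent of genes (vertical axis) at or below each log2 fold change (horizontal axis, limited to -0.7 to 0.7) for the large subunit, the small subunit and all genes tested. Both subunit curves lie to the left of the curve of all genes around the middle, with medians of -0.07 and -0.08 against 0.01, and they are steeper on the right, where no member exceeds 0.15.

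At the stalk, the flexible arm of the large subunit that recruits translation factors, no member was called, and differences between the members were not tested. MRPL12, the counterpart of bacterial L7/L12, which also binds the mitochondrial RNA polymerase, had 42.3, 38.7 and 33.4 FPKM in si-NC cells and 33.5, 30.9 and 20.7 FPKM in PRMT1 KD cells. Both series spread widely and overlapped by a narrow margin, with the library numbered 3 lowest in each group. The log2 fold change of -0.44 ± 0.18 (SE) missed the threshold (adjusted p = 0.238 by limma, and 0.0475 with voom on reads). It was -0.39 after the GC correction (adjusted p = 0.125), -0.32 without both libraries numbered 3 and -0.23 without PRMT1 KD 3 alone. With all 6 libraries this was the lowest value of all members, but MRPS2 was lower without PRMT1 KD 3, without si-NC 1 or without both libraries numbered 3, and MRPL41 without si-NC 2. MRPL12 lies at chr17:81703357-81707526 on the plus strand, and 68.2% of its exonic bases are shared with AC139530.2 on the same strand. MRPL10, which anchors the L12 copies, had 33.1, 33.9 and 31.5 FPKM against 34.1, 35.6 and 37.1 FPKM, with every knockdown library above every control library. A log2 fold change of 0.11 ± 0.05 (SE) was not called (adjusted p = 0.283), and was 0.05 without both libraries numbered 3. MRPL11, at the stalk base, overlapped, with 24.05, 24.96 and 22.7 FPKM against 23.3, 23.8 and 26.6 FPKM (log2 fold change 0.04). Its sign turned without PRMT1 KD 3 (-0.019) and without both libraries numbered 3 (-0.053).

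Human mitochondria use 3 relatives of bacterial S18, and only MRPS18B was called. MRPS18A, which sits in the large subunit despite its name, had 18.8, 21.6 and 19.6 FPKM against 20.8, 20.2 and 18.1 FPKM. MRPS18C had 3.81, 3.87 and 4.24 FPKM against 3.36, 3.83 and 4.13 FPKM. Both overlapped between groups, with log2 fold changes of -0.02 (95% interval -0.19 to 0.15) and -0.06 (-0.26 to 0.13), and the sign of MRPS18A turned after the GC correction (0.02). Opposite-strand exons cover 47.0% of the exonic bases of MRPS18A (RSPH9) and 40.2% of those of MRPS18C (ABRAXAS1). Differences among the 3 relatives were not tested.

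Names and places differ for a few members. MRPS30 also sits in the large subunit and had 13.4, 12.8 and 12.6 FPKM in si-NC cells against 13.7, 13.4 and 14.9 FPKM in PRMT1 KD cells, all above the controls (log2 fold change 0.11, adjusted p = 0.336). It was 0.02 after the GC correction and 0.07 without PRMT1 KD 3. MRPS36 is now known as a subunit of the 2-oxoglutarate dehydrogenase complex, and it had 13.1, 12.6 and 13.3 FPKM against 10.6, 11.6 and 13.3 FPKM (log2 fold change -0.13, adjusted p = 0.426). This value was -0.22 after the GC correction (adjusted p = 0.0761), -0.22 without PRMT1 KD 3 and -0.06 without PRMT1 KD 1. With MRPS18A and MRPS30 counted as large and MRPS36 left out, medians were -0.07 for 51 large and -0.08 for 25 small members, and calls were 1 of 51 and 2 of 25.

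MRPS12, MRPS7, MRPS5 and MRPS27, named for their roles in the small subunit, overlapped between groups. MRPS12, at the decoding centre, had 24.6, 25.05 and 21.6 FPKM against 21.5, 23.6 and 21.9 FPKM. MRPS7, which helps to organise the head of the subunit, had 34.2, 35.1 and 30.8 FPKM against 30.8, 30.9 and 31.2 FPKM. MRPS5, the counterpart of bacterial S5, had 23.1, 23.4 and 21.9 FPKM against 21.5, 22.3 and 22.9 FPKM. MRPS27, a pentatricopeptide repeat protein, had 16.9, 18.03 and 17.6 FPKM against 16.7, 19.9 and 19.0 FPKM. Their log2 fold changes were -0.08, -0.10, -0.03 and 0.08, and none was called. With single libraries left out, MRPS12 ran from -0.15 (without si-NC 3) to -0.05 (without si-NC 2) and MRPS7 from -0.16 to -0.07 (the same libraries). MRPS5 ran from -0.062 (without si-NC 3) to -0.013 (without PRMT1 KD 1), and MRPS27 from 0.023 (without PRMT1 KD 2) to 0.15 (without PRMT1 KD 1).

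A pair of further large subunit members has roles of their own. MRPL58, also called ICT1, a peptidyl-tRNA hydrolase that rescues stalled ribosomes, had 36.5, 34.3 and 33.1 FPKM against 35.9, 38.1 and 38.2 FPKM (log2 fold change 0.11, adjusted p = 0.322). MRPL13, the counterpart of bacterial L13, had 11.9, 12.5 and 13.1 FPKM against 11.6, 10.8 and 11.9 FPKM (log2 fold change -0.12, adjusted p = 0.323). Each overlapped by a single library. MRPL13 was at -0.22 after the GC correction, and MRPL58 at 0.06 without both libraries numbered 3.

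Levels of the members, on the length-scaled FPKM, ranged from MRPS24 at under 1 to MRPL24 at a mean of 134, with a median over the members tested of 20.8 in the large and 19.1 in the small subunit. MRPL24, the counterpart of bacterial L24, had 134.6, 141.7 and 131.6 FPKM in si-NC cells against 132.9, 137.9 and 127.7 FPKM, and MRPL15, of the L15 family, 75.9, 74.3 and 73.3 against 66.5, 74.1 and 73.0 FPKM. MRPS34, a mitochondria-specific protein, had 72.8, 76.3 and 63.8 against 72.7, 68.3 and 61.8 FPKM. Of the 2 most abundant members in each subunit, MRPL24, MRPL15 and MRPS34 overlapped between groups, with log2 fold changes of -0.03, -0.07 and -0.07, and MRPS18B did not overlap and was called. With single libraries left out, MRPL24 ran from -0.06 (without PRMT1 KD 2) to -0.0033 (without si-NC 2), MRPL15 from -0.096 (without PRMT1 KD 2) to -0.018 (without PRMT1 KD 1) and MRPS34 from -0.14 (without si-NC 3) to -0.0064 (without PRMT1 KD 3). At the low end, MRPL46, found only in mitochondria, had 1.79, 1.65 and 1.80 FPKM against 1.56, 1.62 and 1.62 FPKM, with no overlap (log2 fold change -0.08, adjusted p = 0.680). This value was -0.14 after the GC correction and -0.13 with voom on reads, and was not called in either. MRPL53, also mitochondria-specific, had 1.39, 2.08 and 1.49 against 1.71, 2.07 and 1.17 FPKM, on 24 to 45 reads per library. Its log2 fold change of -0.01 changed sign under several settings, and 45.2% of its exonic bases are shared with CCDC142 on the same strand. MRPS24 was listed at 0.0693, 0.119 and 0.139 FPKM in si-NC cells and at 0.301, 0.0532 and 0.502 FPKM in PRMT1 KD cells, on 2 to 20 reads, under the filter of a mean of 1 FPKM. It was not tested, and 23.2% of its exonic bases (606 bases) are shared with the read-through gene URGCP-MRPS24 on the same strand. In MRPL53 the shared stretch is 608 bases. How reads on shared bases were counted is not given in the sources used here. The listed levels of MRPS24 and MRPL53 may therefore be too low, which was not tested.

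Other members not named by the rule and lower at an unadjusted p under 0.05 were MRPL30 and MRPL28, the counterparts of bacterial L30 and L28 (log2 fold changes -0.23 and -0.17), and MRPL48 (-0.17). None was called, with adjusted p of 0.158 for MRPL30, 0.207 for MRPL28 and 0.201 for MRPL48. MRPL47, a member of the L29 family, had 26.0, 26.5 and 32.5 FPKM in si-NC cells and 23.8, 23.4 and 26.9 FPKM in PRMT1 KD cells, with the library numbered 3 highest in each group, at 38.0% GC. The log2 fold change was -0.18 (adjusted p = 0.348) and -0.26 after the GC correction (adjusted p = 0.0365). With the replicate block added to the GC correction MRPL47 was not called. MRPL50, a mitochondria-specific protein, had the highest log2 fold change in the main analysis, 0.15 (95% interval -0.08 to 0.37), with groups that overlapped. After the GC correction it was at 0.055, and MRPL38 (0.16), MRPL10 (0.13) and MRPL58 (0.12) were higher. In all, 18 members had a PRMT1 KD mean more than 10% below the si-NC mean, 13 large and 5 small (23.4%, against 20.5% of all genes and 16.0% of protein coding genes tested), and 2 had one more than 10% above it (2.60%, against 24.7% and 22.3%).

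The members were also described by features that the rule did not use. They lie on 21 chromosomes, with 8 each on chromosomes 1, 2 and 17. All 8 on chromosome 1 had a log2 fold change below 0, as did 1 of the 5 on chromosome 5. Their median gene length was 2539 bases, against 5075 for all protein coding genes tested, and their median GC content 47.7%, against 48.2%. Across the 77 members, Spearman's rho of the log2 fold change was 0.16 with length and -0.16 with GC content, against 0.23 and -0.32 across protein coding genes (n = 10107 and 10099). With mean FPKM rho was -0.08 and with the percent of exonic bases shared with other genes -0.08. Of the 78 members, 41 share at least 1 exonic base with another gene and 9 share over 30%. Pseudogenes named after members numbered 75, of which 50 had no read in any library. Their reads came to over 5% of the reads of the parent gene for MRPS31 (8.99%), MRPS17 (7.42%) and MRPL45 (7.34%) only.

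Among the 5 ribosomal proteins under other names, the assembly factors and the translation factors listed here, none was called. Of the 5 ribosomal proteins under other names, 1 was lower (20%, against 9.47% of all genes) and 0 higher (against 10.1%) at an unadjusted p under 0.05. The lower one was CHCHD1, at 19.0, 19.8 and 18.9 FPKM against 17.5, 15.5 and 17.4 FPKM (log2 fold change -0.19, adjusted p = 0.149). AURKAIP1 had -0.16, GADD45GIP1 -0.12, DAP3 0.06 and PTCD3 0.03. Of 29 assembly factors, 0 were called by limma, and 4 were lower (13.8%, against 9.47% of all genes) and 2 higher (6.90%, against 10.1%) at an unadjusted p under 0.05, shares near those of all genes. Their median was -0.02, against 0.01. METTL17, which binds the small subunit RNA during assembly, had 17.1, 17.8 and 16.4 FPKM against 18.1, 20.3 and 20.2 FPKM (log2 fold change 0.18, adjusted p = 0.179). MRM3, a methyltransferase of the large subunit RNA, had 13.8, 12.9 and 13.4 FPKM against 11.97, 12.2 and 12.1 FPKM (log2 fold change -0.14, adjusted p = 0.186).

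Of 16 translation factors, 0 were called by limma, 2 were lower (12.5%, against 9.47% of all genes) and 0 higher (against 10.1%) at an unadjusted p under 0.05, with a median of 0.00. TACO1, the translational activator of cytochrome c oxidase subunit 1, had 26.997, 28.3 and 25.5 FPKM in si-NC cells and 23.2, 21.2 and 20.6 FPKM in PRMT1 KD cells. Its groups did not overlap (log2 fold change -0.30, adjusted p = 0.0657). MTFMT, which formylates the initiator methionine, had 5.01, 4.64 and 4.64 FPKM against 3.92, 4.35 and 3.88 FPKM (log2 fold change -0.19, adjusted p = 0.188). Of 18 genes for mitochondrial transcription and RNA processing tested, 0 were called by limma, 0 were lower and 1 higher at an unadjusted p under 0.05 (5.56%, against 10.1%). The smallest p values were those of GRSF1, an RNA granule protein, with a log2 fold change of 0.13 (adjusted p = 0.203), and HSD17B10, a subunit of mitochondrial RNase P, with -0.14 (adjusted p = 0.31).

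Mitochondrial tRNAs and the enzymes that charge them were added as lists after the data were seen. Of 20 tRNAs tested, MT-TC alone was called, with 2028, 2041 and 1982 FPKM in si-NC cells and 1561, 1620 and 1727 FPKM in PRMT1 KD cells (log2 fold change -0.30, adjusted p = 0.0434 by limma). This is 5% of the list, against 0.986% of all genes called lower. At an unadjusted p under 0.05, 4 tRNAs were lower (20%, against 9.47% of all genes) and 3 higher (15%, against 10.1%), and 14 of the 20 rest on a mean under 100 reads. The median length of these tRNA genes is 68.5 bases. Whether their reads came from mature tRNA or from longer RNA was not tested. Of 21 genes for charging enzymes tested, RARS2, the arginyl-tRNA synthetase of mitochondria, alone was called. It had 13.8, 13.2 and 14.2 FPKM against 11.3, 11.2 and 10.5 FPKM, with no overlap (log2 fold change -0.30, adjusted p = 0.0477 by limma), and is 4.76% of the list, against the same 0.986% of all genes. No other charging enzyme had an unadjusted p under 0.05 (4.76% lower, against 9.47% of all genes), and the median of the list was 0.00. The calls of MT-TC and RARS2 are given for the main fit only, and how they depend on single libraries or on GC content was not examined.

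Transcripts read by this ribosome had log2 fold changes mostly below 0, without a call. Of the 13 mitochondrially encoded mRNAs, 12 were below 0 (92.3%, against 47.4% of all genes), with a median of -0.13. By limma 0 were called (against 0.986% of all genes called lower), and 5 were lower at an unadjusted p under 0.05 (38.5%, against 9.47%). MT-ND6 had 1772, 1584 and 1488 FPKM in si-NC cells and 1259, 1287 and 1212 FPKM in PRMT1 KD cells, with no overlap (log2 fold change -0.36, adjusted p = 0.0556). MT-CYB had 1161, 1118 and 1010 FPKM against 925, 942 and 958 FPKM (log2 fold change -0.22, adjusted p = 0.117). The ribosome's own RNAs were spread more widely, with MT-RNR1 (small subunit) at 731, 751 and 1113 FPKM against 787, 1007 and 1121 FPKM, and MT-RNR2 (large subunit) at 5698, 5672 and 5985 FPKM against 4720, 5219 and 6020 FPKM. Both overlapped between groups, with the library numbered 3 highest in each.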

How the data were processed

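The authors deposited 1 table of FPKM values per gene for 6 RNA-seq libraries of MM.1S cells, with gene lengths, coordinates and types. The submitters' processing notes name featureCounts 1.5.0-p3 and hg38. The aligner and strand setting are not given in the sources used here. FPKM times gene length was a whole multiple of 1 step per library for 100% of values above 0 (within 0.01 reads), which gave 14439217 to 16465026 reads per library. The total by which each library had been divided was 0.988 to 1.03 times these reads, so the deposited FPKM values already carry a scaling between libraries. Intervals cover the spread between libraries only.

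Groups and replicate numbers came from the labels. A linear model with moderated variances along a mean trend (limma 3.58.1, R 4.3.3) was fitted to log2(FPKM + 1) of the 13585 genes whose mean FPKM reached 1, with two-sided p adjusted by Benjamini-Hochberg over all of them. Fold changes are on that scale, which understates changes of low genes. Called means an adjusted p under 0.05. Exact permutation tests used the 6 libraries. The members and gene lists were chosen with earlier results of these data known. Members are named if called, among the 6 smallest p of a subunit, the 2 highest or the 2 lowest by mean FPKM, or by role. Members outside this rule were named after their values were seen. Shared exons and start codons came from GENCODE 29, with the same coordinates for all 78 members, and promoters from RefSeq. Alternatives covered the pseudocount, filter, scaling, variance model, replicate block, reads, each library left out and assignment by place. Chosen after seeing the data were a GC correction (lowess, span 0.3) and the libraries numbered 3 left out. GC content of a gene is that of its longest transcript in GENCODE 29. In the correction, 11 of the 13585 genes had no such value and were left as they were. On simulated reads for this comparison (13627 genes tested), 78 of 100 genes changed by 1 on the log2 scale and 9 of 100 changed by 0.4 were called in the right direction, with 7 unchanged genes called.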

Additional observations from a re-analysis of the deposited data

How the results depend on the processing

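Medians of both subunits stayed below 0 under every alternative run, from -0.10 to -0.04 for the large and from -0.12 to -0.05 for the small subunit. The number of calls was less stable. Against 279 genes, 1 large and 2 small members called in the main analysis, the GC correction called 974 genes with 4 and 4 members, voom on reads 906 genes with 4 large members, and a filter at a mean of 5 FPKM 473 genes with 2 large members. Without a filter 35 genes were called, without the variance trend 43, and without both libraries numbered 3 (2 against 2) 21, with 0 large and 0 small members in each by limma, where 13, 13 and 28 members were lower at an unadjusted p under 0.05, against 5.20%, 9.44% and 11.4% of all genes. At an unadjusted p under 0.05 there were 2655 genes, 10 large and 4 small members. Main calls were 134 lower and 145 higher, against 133 and 222 after TPM rescaling and 139 and 82 after scaling to equal medians.

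With each library left out in turn, 13 to 95 genes were called, 0 to 1 large and 0 to 1 small members, and the small subunit median ran from -0.12 (without si-NC 3) to -0.052. Without any single library other than si-NC 3, 0 members were called by limma and 11 to 17 were lower at an unadjusted p under 0.05, against 6.51% to 9.15% of all genes. Adjusted p over all alternatives ranged from 0.00184 to 0.146 for MRPS2, 0.0112 to 0.146 for MRPL55 and 0.00494 to 0.139 for MRPS18B, with every log2 fold change below 0.

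Members near 0 changed sign. MRPL53 reached 0.0057 under TPM rescaling, 0.0018 under quantile normalization, 0.011 after the GC correction, with or without the replicate block, and 0.088 without both libraries numbered 3, and ran from -0.12 to 0.13 with single libraries left out. MRPS18A was at 0.017 after the GC correction, with or without the block, at 0.026 without both libraries numbered 3, and ran from -0.060 to 0.039. MRPL11 was at -0.053 without both libraries numbered 3 and ran from -0.019 to 0.073, and MRPS18C ran from -0.12 to 0.0010. The cause was not tested. Of 518 values for 29 named members under 18 alternatives, 466 kept direction and call, 27 lost the call, 10 gained it and 15 changed sign.

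With the replicate block, 204 genes and 1 large and 2 small members (MRPL41, MRPS18B and MRPS2) were called, MRPL55 had an adjusted p of 0.052 by limma and MRPL41 0.0441. With the GC correction and the block 301 genes and the same 3 members were called. MRPL55 (0.0557), MRPL18 (0.0592), MRPS16 (0.0779), MRPS21 (0.0746) and MRPL47, called after the GC correction alone, were not. Deviations of same-numbered libraries correlated by 0.02, 0.0631 and 0.101, so the labels' numbers do not clearly pair the libraries. Every library correlated best with its own number, but for the libraries numbered 1 by very little. For si-NC 1 the value was 0.01998 with PRMT1 KD 1 and 0.01865 with PRMT1 KD 2, and si-NC 2 had 0.0173 with PRMT1 KD 1. Deviations within a group are tied to each other by the group mean, so these correlations are not independent and no pairing is drawn from them.

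On simulated reads, 9 of 100 changes of 0.4 on the log2 scale were called, so a member without a call is not shown to be the same in both groups. MRPL53, MRPS17 and MRPS24 rest on few reads.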
